A study of Caenorhabditis elegans with 12 samples.

Results

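Of the 100257 windows of 1000 bases into which the Caenorhabditis elegans genome was divided, 920 (0.918%) held abundant RNA with similar normalized coverage in nuclear-enriched and cytoplasmic-enriched RNA. They were selected on the measured values themselves: a coverage of at least 100 in each of the 4 whole RNA libraries, and a ratio of mean nuclear to mean cytoplasmic coverage between 0.5 and 2. Their whole RNA levels and that ratio are therefore described and not tested, and the genotype comparison in whole RNA, which draws on the same 4 libraries, is read as a description too. The same holds for the whole RNA part of the comparison of generations. Of the 1136 windows that passed the whole RNA minimum, the 920 balanced ones were 81.0%, while 152 had a ratio above 2 and 64 a ratio below 0.5. The balanced windows carried 25.6% to 35.8% of all coverage of a library.

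RNA was sequenced from young adult hermaphrodites of the mutant hrde-1(tm1200) and of the wild type strain N2. All animals were kept at 23 C, for 3 or for 4 generations. RNA came from whole animals, from the pelleted nuclei of a sucrose cushion and from the cushion layer, which was taken as cytoplasm. This gave 6 groups (hrde-1 and N2, each as whole, nuclear and cytoplasmic RNA) with 2 libraries each, 1 from generation 3 and 1 from generation 4. Ribosomal RNA was removed with RNase H, and no poly(A) selection was made. Each library came from many animals of all tissues, and tm1200 is the only hrde-1 allele in the series. In the genotype comparisons, p-values thus reflect a spread that includes any difference between generation 3 and generation 4. Whether libraries came from separate cultures is not in the labels, so apart from generation that spread may be only technical.

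HRDE-1 is an Argonaute protein of the germline that carries small RNAs into the nucleus, where this pathway silences its target genes during transcription and helps to keep them silent over generations. Nuclear RNA holds transcripts that are being made or processed, and cytoplasmic RNA holds mostly mature messenger RNA. A ratio of nuclear to cytoplasmic coverage compares these fractions window by window. It compares shares of libraries, and not amounts of RNA in nucleus and cytoplasm.

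The libraries held 191254 to 908238 read equivalents, a read equivalent being the step in which low coverage values rise. The shallowest were N2 cytoplasmic RNA, with 191254 and 263379, while those of hrde-1 held 520741 and 361943. A coverage of 100 stood for 71.5 to 83.0 reads in whole RNA, for 51.8 to 95.0 in nuclear RNA and for 21.8 and 31.7 in N2 cytoplasmic RNA. The median balanced window held 37.0 and 49.0 reads in the N2 cytoplasmic libraries and 69.0 or more in every other library, and the lowest held 8.0 and 7.0 reads there. Coverage was normalized to similar totals, so a value is close to a share of a library, and fewer cells of a type and less RNA per cell cannot be told apart. Windows are named by position, since no annotation of the table's genome build was used, and for the same reason no level of hrde-1 is given as a check of the genotypes.

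Whole RNA coverage of the balanced windows, averaged over the 4 libraries, ran from 105.6 to 3172, with a median of 192.6 and an interquartile range of 146.8 to 310.7. Most of them lay close to the minimum: 488 were below 200, 309 from 200 to 500, 85 from 500 to 1000 and 38 at or above 1000. The 10 highest windows held 9.35% of the whole RNA coverage of the set and the 50 highest 25.5%. At the minimum itself, the 3 windows just inside (2 on chromosome I and 1 on IV) had a lowest whole library of 100.02, and the 3 just outside (1 on I and 2 on II) one of 99.99.

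**Figure D1:**
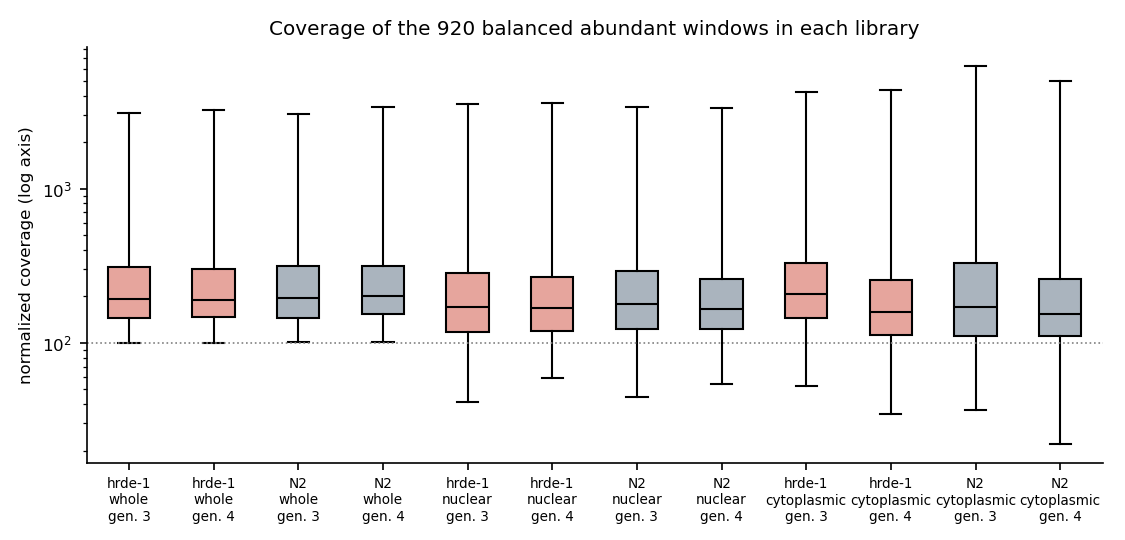
Normalized coverage (log axis) of the 920 windows in each of the 12 libraries, with boxes for the quartiles, a line for the median and whiskers to the lowest and highest window; the dotted line is the minimum of 100 that all 4 whole RNA libraries had to reach. Medians lie between 154 and 206 in all 12 libraries, and the highest values, 6239 and 5006, are those of N2 cytoplasmic RNA.

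The ratio of nuclear to cytoplasmic coverage had a median of 0.948, with an interquartile range of 0.804 to 1.17, and 524 of the 920 windows were below 1. Within genotypes the median was 0.932 in hrde-1 and 1.01 in N2, an order that turned round when all libraries were scaled to the same median, as given with the genotype comparison below. Within single pairs of libraries it was 0.833 in hrde-1 of generation 3, 1.06 in hrde-1 of generation 4, 0.996 in N2 of generation 3 and 1.03 in N2 of generation 4. The limits of 0.5 and 2 were set on means of 4 libraries a fraction: 743 windows stayed inside them in all 4 pairs, and 177 left them in at least 1 pair, 128 of these in 1 pair only. Just inside the lower limit were windows on IV from 14764001 (0.503), V from 8889001 (0.509) and IV from 9511001 (0.513), and just outside it windows on IV from 12782001 (0.499), III from 12367001 (0.496) and II from 10786001 (0.495). Just inside the upper limit were windows on I from 10569001 (1.99), X from 6409001 (1.99) and II from 10010001 (1.98), and just outside it windows on V from 18638001 (2.03), III from 13019001 (2.03) and I from 9789001 (2.04).

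Balanced does not mean that the 3 kinds of RNA had equal values. The median ratio of nuclear to whole coverage was 0.837 (interquartile range 0.731 to 1.02), and that of cytoplasmic to whole coverage was 0.846 (0.767 to 0.946). Whole RNA was above both fractions in 586 windows, between them in 243 and below both in 91. The rule asked for a minimum in whole RNA and none in the fractions, so these counts are a description. The same limit holds where the libraries did not overlap, which was not counted over all tested windows. In 67 windows every whole library lay above every nuclear and every cytoplasmic library, and in 7 windows every whole library lay below them.

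**Figure D2:**
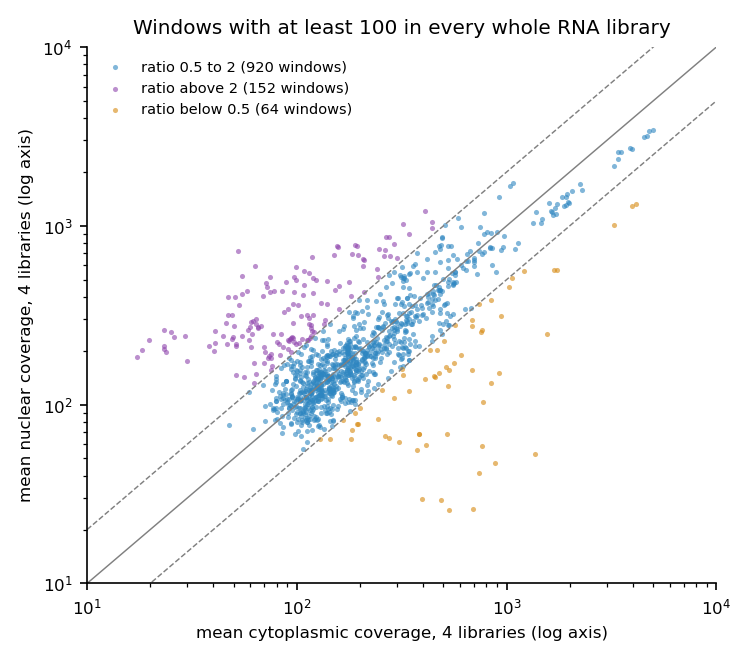
Mean nuclear against mean cytoplasmic coverage (4 libraries each, both axes log) of the 1136 windows with at least 100 in every whole RNA library, with lines at ratios of 0.5, 1 and 2. The 920 balanced windows form 1 cloud along the diagonal that bends toward cytoplasm at the top, while the 152 windows above and the 64 windows below lie scattered outside the dashed lines.

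The most abundant balanced windows leaned toward cytoplasm. The 38 windows at or above 1000 had a median ratio of 0.747 (interquartile range 0.692 to 0.827), and 33 of them were below 1. For the 3 lower classes of whole RNA coverage, from the highest to the lowest, the median ratio was 0.956, 0.931 and 0.988. In the 38 windows the median ratio was 0.873 in hrde-1 and 0.643 in N2. Over all 920 windows, level and ratio were nearly unrelated on the log2 scale (Pearson's r -0.09 and Spearman's rho -0.10 across windows, which share libraries and depth and are not independent).

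The balanced windows came in short groups. They formed 571 runs of adjacent windows, of which 338 were single windows, 164 pairs and 45 triplets, and 63.3% of the windows stood next to another balanced window. Neighbours shared their ratio: across the 349 adjacent pairs the log2 ratios had a Pearson's r of 0.80 and differed by a median of 0.13, although adjacent windows can be parts of 1 transcript. Around the balanced windows, whole RNA coverage was followed only in windows outside the 3 abundant classes (balanced, ratio above 2 and ratio below 0.5). Its drop from the balanced windows, with a median of 192.6, is therefore set in part by that choice. In these other windows the median was 27.1 next to a balanced window, 5.05 at a distance of 2 windows and 1.40 at a distance of 5. Summed over windows, the ratio of nuclear to cytoplasmic coverage was 0.922 in the balanced windows and 1.01 in these neighbours outside the abundant classes. It was 1.04 to 1.12 at distances of 2 to 5 windows, and 1.13 in all windows outside the 3 abundant classes. The genotypes differed in direction here. In hrde-1 the neighbours were below the balanced windows, with 0.830 against 0.877 in generation 3 and 1.00 against 1.05 in generation 4, while in N2 they were above, with 1.12 against 0.845 in generation 3 and 1.13 against 0.945 in generation 4. That difference was not tested.

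Every chromosome held some, the X the fewest. There were 164 on I, 143 on II, 178 on III, 183 on IV, 172 on V and 80 on X. That is 4.51 per 1000 windows on X, against 10.2 on the autosomes, and 1.32% of the tested windows on X, against 2.22% on the autosomes. The few on X were higher, with a median whole RNA coverage of 256.6, against 189.15 on the autosomes, and 23 of the 38 windows at or above 1000 were on X. The middle part of the chromosomes, when each was cut into 3 equal parts, held 46.3% of the balanced windows, 35.8% of the tested windows and 33.3% of all windows. The other abundant windows were placed much alike, with 44.7% of those above 2 and 42.2% of those below 0.5 in the middle part. X held 6.58% and 7.81% of these classes, against 8.70% of the balanced windows. Among balanced windows on X the share in the middle part was 28.75%, and 45 of the 80 windows lay in the first part.

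The 10 windows with the highest whole RNA coverage lay at 3 places: 4 on IV from 8262001 to 8266000, 5 on X from 5101001 to 5106000, and 1 on III from 6970001 to 6971000. In the highest of all, on IV from 8264001, whole RNA coverage was 3069 and 3232 in hrde-1 and 3012 and 3376 in N2. Its nuclear coverage was 3370 and 3565 in hrde-1 and 3392 and 3332 in N2. Its cytoplasmic coverage was 4232 and 4376 in hrde-1 and 6239 and 5006 in N2, so that the groups overlapped in whole RNA and nuclear RNA and stood apart in cytoplasmic RNA. The log2 difference in cytoplasmic RNA, hrde-1 minus N2, was -0.38 with a standard error of 0.11 and did not pass the test (limma, adjusted p = 0.121). It passed with all libraries set to the same median (adjusted p = 0.0434) and with the N2 cytoplasmic library of generation 4 left out (0.0142). In cytoplasm, the highest window on X, from 5105001, had 3394 and 3425 in hrde-1, against 4842 and 3776 in N2, while in whole RNA it had 2518 and 2516 in hrde-1, against 2409 and 2662 in N2. The window on III differed in that both fractions were below whole RNA in mean: its nuclear coverage was 1763 and 1804 in hrde-1 and 1754 and 1519 in N2, its cytoplasmic coverage 2409 and 1791 in hrde-1 and 2480 and 2286 in N2, and its whole coverage 2509 and 2374 in hrde-1 and 2458 and 2276 in N2.

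The longest runs fell into a group with a low ratio on IV and X and a pair of others. The longest, 7 windows on IV from 3040001 to 3047000, leaned toward the nucleus, with mean nuclear, cytoplasmic and whole coverages of 182.0, 106.7 and 145.5 and a ratio of 1.71. In the 6 windows on V from 3581001 to 3587000 the fractions were even, with 201.0 in nuclear and 203.8 in cytoplasmic RNA. The other 6 runs had 6 windows each and mean whole coverages of 957 to 2494, on IV from 8261001 to 8267000 and on X from 3403001 to 3409000, 3558001 to 3564000, 3567001 to 3573000, 5101001 to 5107000 and 7727001 to 7733000. Their ratios were 0.688 on IV and 0.709 to 0.795 on X. Mean cytoplasmic coverage of the IV run was 3365 ± 54.0 in hrde-1 and 4409 ± 769 in N2 (SD, n = 2 each), while its whole coverage was 2495 ± 24.5 in hrde-1 and 2492 ± 145 in N2. The X runs from 3558001 and from 3567001 had similar values in each library, for example 1313 and 1277 in hrde-1 cytoplasmic RNA of generation 3, and no source used here says how reads with several matches were counted, so they are uncertain as separate signals. The same holds for a pair of windows on V, from 8847001 and from 8889001, with mean whole coverages of 205.8 and 169.2 and ratios of 0.528 and 0.509.

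To ask whether the loss of HRDE-1 moved the balanced windows, hrde-1 was compared with N2 in each kind of RNA, window by window, with limma on log2(coverage + 1). Tests were two-sided, and p-values were adjusted by the Benjamini-Hochberg method over all 43933 windows with a mean coverage of at least 1. All 920 balanced windows passed that filter. The minimum in all 4 whole RNA libraries removes windows that are abundant in 1 genotype alone, so nothing is read from how few balanced windows passed in any kind of RNA. Among windows with a balanced ratio, 15 reached 100 in both hrde-1 whole libraries and in neither N2 whole library, and 51 did the reverse. Examples, chosen after the values were seen, are the window on IV from 8397001, which carries the GRH mark described at the end, with 145 and 141 in hrde-1 and 9.87 and 8.52 in N2 whole RNA, and the window on III from 4175001, with 79.5 and 66.9 in hrde-1 and 253 and 226 in N2 whole RNA.

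In whole RNA, 0 of the 920 balanced windows passed the test between hrde-1 and N2 (limma, lowest adjusted p = 0.0719), against 0.1% of all tested windows. An unadjusted p under 0.05 was found for 5 of them (0.543%), against 3.72% of all tested windows. The log2 difference, hrde-1 minus N2, had a median of -0.05 over the balanced windows and of 0.00 over all tested windows. It lay between -1.05 and 0.51, and for 908 of the 920 windows its 95% interval lay within a 2-fold change in either direction. In nuclear RNA, 0 windows passed it as well (limma, lowest adjusted p = 0.336), against 0.296% of all tested windows. An unadjusted p under 0.05 was found for 10 of them (1.09%), against 4.31% of all tested windows. The median log2 difference was -0.01, against -0.11 over all tested windows, and for 901 windows the 95% interval lay within a 2-fold change.

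Cytoplasmic RNA differed in 4 balanced windows, 3 higher and 1 lower in hrde-1, while 0.867% of all tested windows did so (limma). The 4 windows are 0.435% of the 920. An unadjusted p under 0.05 was found for 155 of them, and their share, 16.8%, was that of all tested windows. The 95% interval of the log2 difference lay within a 2-fold change in 802 windows with the spread shared by all 6 groups. With a fit of the cytoplasmic groups alone, it did so in 295. The log2 differences had a median of 0.07, against 0.25 over all tested windows. The sign of that median rests on single libraries: the median over balanced windows was 0.16 in generation 3 and -0.04 in generation 4, and with 1 cytoplasmic library left out it was -0.13 and 0.27 without hrde-1 of generation 3 and 4, and 0.15 and -0.03 without N2 of generation 3 and 4. These numbers also depend on how the libraries are scaled. With all libraries set to the same median, the median over all tested windows became -0.05 and that over balanced windows -0.34. By that scaling 0 of the 920 balanced windows were called higher and 30 lower, against 201 and 130 of the 43933 tested windows. Relative to all tested windows, the balanced windows were lower by either scaling. Scaling moves all windows of a library together, so this is not separate support. Before scaling, the median tested window held 4.68 and 3.25 in N2 cytoplasmic RNA, where 1 read stood for 4.58 and 3.15. The scale factors of these libraries thus rest on single reads above the floor and on depth. The number of calls also moved with single libraries. It rose when either of the shallow N2 cytoplasmic libraries was left out, which leaves 1 library in that group, and fell when any other library was left out.

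**Figure D3:**
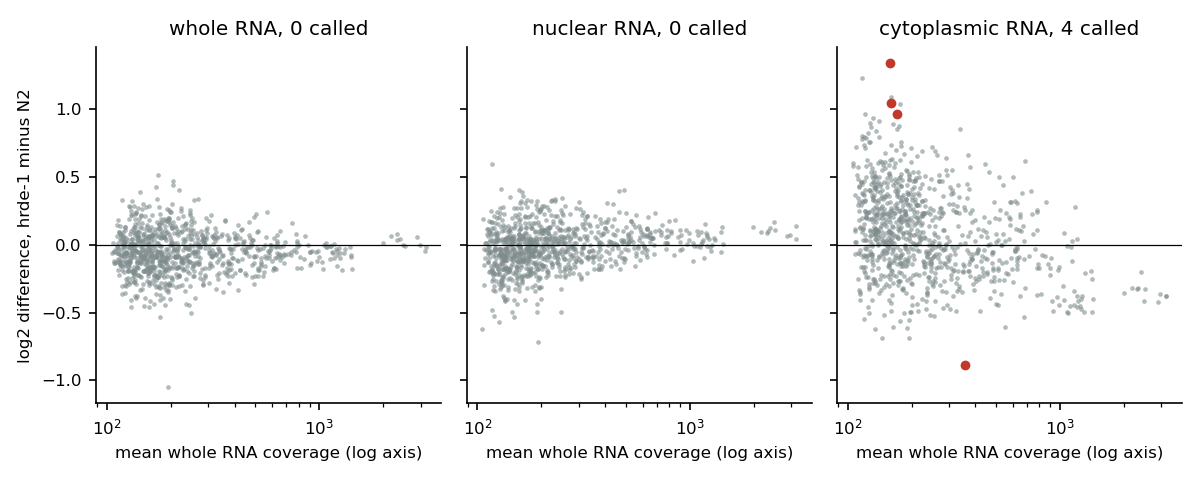
Log2 difference of coverage + 1, hrde-1 minus N2, against mean whole RNA coverage (log axis) for the 920 windows in whole, nuclear and cytoplasmic RNA; red points passed the test. The points spread more in cytoplasmic RNA than in the other panels, and most of the 38 windows at or above 1000 lie below 0 there.

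The largest of the 3 cytoplasmic increases was on V from 6703001 to 6704000. Its cytoplasmic coverage was 215 and 161 in hrde-1, against 73.4 and 72.5 in N2, a log2 difference of 1.34 with a standard error of 0.23 (limma, adjusted p = 0.0196). Both hrde-1 libraries were more than 2-fold above both N2 libraries. Whole RNA coverage was 147 and 166 in hrde-1 and 138 and 179 in N2, and nuclear coverage was 75.3 and 83.0 in hrde-1 and 83.8 and 115 in N2, so the groups overlapped in whole RNA. Of its neighbours, the window from 6704001 had cytoplasmic coverages of 95.5 and 111 in hrde-1 and 45.9 and 85.1 in N2, and the window from 6702001 was at the floor of 0.1 in all 4 cytoplasmic libraries.

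The other increases were on I from 3268001 to 3269000 and on V from 14010001 to 14011000. On I, cytoplasmic coverage was 206 and 164 in hrde-1 and 91.7 and 85.1 in N2, a log2 difference of 1.05 with a standard error of 0.19 (limma, adjusted p = 0.0281). Whole RNA there went the other way without passing the test, with 144 and 130 in hrde-1 and 193 and 172 in N2 (log2 difference -0.41). On V, cytoplasmic coverage was 193 and 154 in hrde-1 and 87.1 and 88.25 in N2, a log2 difference of 0.97 with a standard error of 0.20 (limma, adjusted p = 0.0412). In both places the adjacent balanced window had the same order without a call: from 3267001 on I, 172 and 125 in hrde-1 and 96.3 and 101 in N2, and from 14009001 on V, 165 and 108 in hrde-1 and 73.4 and 78.8 in N2. All 3 calls were lost with all libraries set to the same median and with a fit of the cytoplasmic groups alone. The calls on I from 3268001 and V from 14010001 also held only when the library left out was an N2 cytoplasmic one.

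The window that fell was on IV from 9511001 to 9512000. Its cytoplasmic coverage was 436 and 516 in hrde-1, against 971 and 790.3 in N2, a log2 difference of -0.88 with a standard error of 0.16 (limma, adjusted p = 0.0234). Whole RNA coverage was 370 and 391 in hrde-1 and 348 and 324 in N2, and nuclear coverage was 397 and 350 in hrde-1 and 314 and 330 in N2, so the hrde-1 libraries were the higher ones in these kinds of RNA. The window stood alone: coverage in the windows on either side was at most 22.1 in every cytoplasmic library. Its ratio of nuclear to cytoplasmic coverage was 0.785 in hrde-1 and 0.366 in N2, so that it lay inside the limits in hrde-1 and in the mean over genotypes, and outside them in N2. This call held with libraries set to the same median and was lost with a fit of the cytoplasmic groups alone and without any 1 library other than the N2 cytoplasmic ones.

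The 38 windows at or above 1000 were lower in hrde-1 cytoplasmic RNA as a class, though none passed the test (limma, lowest adjusted p = 0.0743). Their median log2 difference was -0.37, against 0.17 in the 488 windows below 200. Of the 38, 34 were below 0, 29 of them in both generations. Of the 488, 148 were below 0, 63 of them in both generations, and of all balanced windows 22.9% were below N2 in both. Of the 38, 23 lay on X and 8 on IV, some in runs of adjacent windows. Some lay in the X runs from 3558001 and 3567001, uncertain as separate signals. The 38 are therefore not separate observations, and the counts are a description. With all libraries set to the same median, a scaling that rests on depth as said above, 38 of 38 were below 0. By that scaling the median over all balanced windows was itself -0.34. The same 38 windows had median differences of -0.03 in whole RNA and 0.05 in nuclear RNA. Beside this stands that the N2 cytoplasmic library of generation 3 was the shallowest of the series, and the part of depth in the result was not tested.

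**Figure D4:**
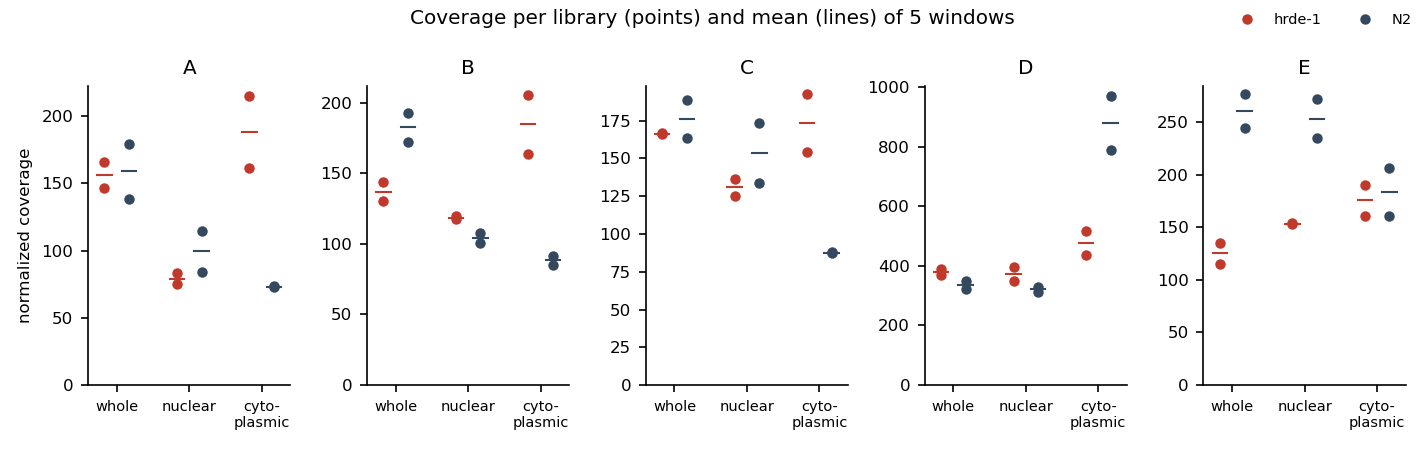
Normalized coverage in each library (points) and its mean (lines) in whole, nuclear and cytoplasmic RNA of 5 windows: A on V from 6703001, B on I from 3268001, C on V from 14010001, D on IV from 9511001 and E on III from 4173001. In A to C the hrde-1 points stand above the N2 points in cytoplasmic RNA, in D they stand below, and in E they stand below in whole and nuclear RNA.

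The largest difference in whole RNA, a window chosen after the values were seen, was on III from 4173001 to 4174000, where hrde-1 was lower in both generations without passing the threshold. Its whole RNA coverage was 136 and 115 in hrde-1, against 277 and 244 in N2, a log2 difference of -1.05 with a standard error of 0.19 (limma, adjusted p = 0.0719). The adjusted p was 0.0143 when generation 3 of N2 cytoplasmic RNA was left out of the shared fit, and 0.0149 when generation 4 was. It was 0.0406 with a minimum mean of 10 and 0.0344 with generation as a replicate block. Over the 8 alternatives that kept all libraries, the adjusted p ran from 0.00613 to 0.596 (limma), and 5 of them did not pass. With any library left out other than an N2 cytoplasmic one, the window did not pass either. Nuclear coverage was 154 and 153 in hrde-1 and 235 and 273 in N2 (log2 difference -0.71, adjusted p = 0.336), and cytoplasmic coverage, where the groups overlapped, was 191 and 161 in hrde-1 and 206 and 161 in N2. The windows on either side, each below 100 in at least 1 hrde-1 whole library and so no balanced windows, had the same order. From 4172001 whole coverage was 65.8 and 74.4 in hrde-1 and 112 and 106 in N2, from 4174001 it was 111 and 81.8 in hrde-1 and 208 and 196 in N2, and from 4175001 it was given above. The reference assembly annotates hrde-1 itself near these positions on chromosome III. Its build differs from that of the table and no coordinates were carried over, so a lower level of the mutated gene and of another transcript cannot be told apart here.

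To ask whether the balance itself moved with the genotype, the log2 ratio of nuclear to cytoplasmic coverage in hrde-1 was compared with that in N2. It passed the test in 0 of the 920 windows and in 0% of all tested windows (limma, lowest adjusted p over the balanced windows 0.215), and 102 balanced windows (11.1%) had an unadjusted p under 0.05, against 11.5% of all tested windows. The comparison was less precise than those within 1 kind of RNA, with a 95% interval within a 2-fold change in 559 of the 920 windows. With a fit of the nuclear and cytoplasmic groups alone, that count was 399. The median log2 difference of the ratio was -0.08, against -0.42 over all tested windows, and these became 0.37 and -0.11 with all libraries set to the same median. Over balanced windows it was 0.10 without hrde-1 cytoplasmic RNA of generation 3 and -0.29 without that of generation 4. The window on V from 6703001 had ratios of 0.420 in hrde-1 and 1.36 in N2 (log2 difference -1.65, standard error 0.33, limma adjusted p = 0.215). The window on IV from 8288001, chosen after the values were seen, had 0.521 in hrde-1 and 1.23 in N2 (log2 difference -1.22, standard error 0.28, limma adjusted p = 0.216), with cytoplasmic coverages of 260 and 207 in hrde-1 and 133 and 148 in N2 that did not overlap. The number of ratio calls moved when either N2 cytoplasmic library was left out, which leaves 1 library in that group.

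The other abundant windows were compared in the same fits. Among the 152 windows with a ratio above 2, 1 was higher in hrde-1 cytoplasmic RNA, and among the 64 windows with a ratio below 0.5, 8 were lower (limma), beside the 0.867% of all tested windows called in either direction. With all libraries set to the same median, 2 of the windows above 2 and 15 of those below 0.5 were lower and 0 of either class higher, and with a fit of the cytoplasmic groups alone 0 were called, while 7 and 6 had an unadjusted p under 0.05. Of either class 0 windows were called in whole or nuclear RNA (limma). At an unadjusted p under 0.05 there were 0 of either class in whole RNA, while nuclear RNA had 2 of those above 2 and 13 of those below 0.5. The median cytoplasmic log2 difference was 0.07 in the windows above 2 and -0.57 in those below 0.5, against 0.07 in the balanced ones. These became -0.33, -0.98 and -0.34 with all libraries set to the same median. The classes were not tested against each other.

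Generation 4 was compared with generation 3 over all 6 groups at once, since the rule pooled the generations. Each generation had 1 library per group, so generation cannot be told apart from other differences between the 2 sets of libraries. The fit took libraries of the same generation as independent. Their deviations from group means correlated at 0.142 to 0.626 over the balanced windows, so the p-values may be too small. Generation 4 was lower in 8 balanced windows and higher in 0 (limma, with an additive generation term), against 0.0524% of all tested windows called in either direction. An unadjusted p under 0.05 was found for 286 balanced windows (31.1%), 250 lower and 36 higher, against 7.80% of all tested windows. That count was 142, 79 lower and 63 higher, with all libraries set to the same median. The 8 windows are 0.870% of the 920. Among the 152 abundant windows with a ratio above 2, 42 (27.6%) had an unadjusted p under 0.05, all lower, and 1 was called. Among the 64 below 0.5 there were 8 (12.5%), 6 higher and 2 lower, and 0 were called. The median log2 differences of these classes were -0.10 and 0.09, so the lean was not particular to the balanced windows. The median log2 difference, generation 4 minus 3, was -0.08 over the balanced windows and 0.04 over all tested windows, and for 915 windows the 95% interval lay within a 2-fold change. With all libraries set to the same median these medians became 0.04 and 0.12, and 0 balanced windows were called, so the sign of the median depends on the scaling. The balanced median stayed below that of all tested windows, which is not separate support, since scaling moves all windows of a library together.

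The 8 windows lay at 5 places: pairs of adjacent windows on IV from 1721001 to 1723000, on IV from 10216001 to 10218000 and on X from 421001 to 423000, and single windows on V from 13198001 to 13199000 and III from 13605001 to 13606000. All 8 were lower in generation 4 in all 6 groups. On IV from 1722001, generation 4 had 258, 323 and 227 in hrde-1 whole, nuclear and cytoplasmic RNA, against 391, 572 and 405 in generation 3. In N2 of the same window, generation 4 had 262, 318 and 158, against 443, 585 and 580.3 in generation 3. The log2 difference over all groups was -0.96 with a standard error of 0.13 (limma, adjusted p = 0.0263), and every library of generation 4 was below every library of generation 3.

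The pair on IV from 10216001 was more abundant. Its first window had 558, 623 and 394 in hrde-1 whole, nuclear and cytoplasmic RNA of generation 4, against 719, 984 and 587 in generation 3. In N2 it had 474, 551 and 282 in generation 4, against 766, 939 and 836 in generation 3 (log2 difference -0.77, standard error 0.12, limma adjusted p = 0.0389). The window on X from 422001 had 576, 686 and 348 in hrde-1 of generation 4, against 712, 1008 and 615 in generation 3, and in N2 595, 647.5 and 287 in generation 4, against 831, 1067 and 719 in generation 3 (log2 difference -0.70, standard error 0.11, limma adjusted p = 0.0349). In N2 cytoplasmic RNA the fall was the largest of the 6 groups in each of the 8 windows. It was close to that of the other groups on III from 13605001, where N2 cytoplasmic RNA had 113 in generation 4, against 188 in generation 3, and hrde-1 cytoplasmic RNA had 141 in generation 4, against 220 in generation 3. The remaining log2 differences were -0.95 on IV from 1721001, -0.90 on V from 13198001, -0.75 on X from 421001, -0.71 on IV from 10217001 and -0.64 on III from 13605001, with adjusted p-values of 0.0242 to 0.0487 (limma). The 8 calls were lost when any library was left out other than the N2 cytoplasmic ones.

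**Figure D5:**
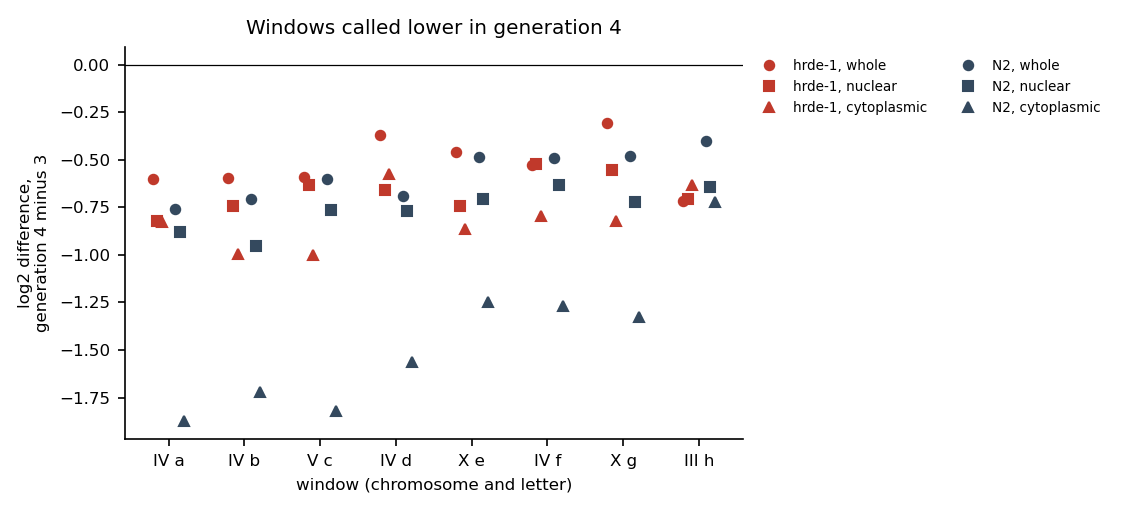
Log2 difference of coverage + 1, generation 4 minus generation 3, in each of the 6 groups for the 8 windows called lower: a on IV from 1722001, b on IV from 1721001, c on V from 13198001, d on IV from 10216001, e on X from 421001, f on IV from 10217001, g on X from 422001 and h on III from 13605001. Every point lies below 0, and N2 cytoplasmic RNA has the lowest point of each window, with the narrowest spread of the 6 groups in h.

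Direction over all balanced windows also leaned toward lower values in generation 4. The other abundant windows were not counted in this way, and the counts include the whole RNA libraries that the rule used. In 177 of the 920 (19.2%) generation 4 was below generation 3 in all 6 groups, against 2.31% of all tested windows. In 7 (0.761%) it was above in all 6, against 1.86% of all tested windows. With all libraries set to the same median, 46 balanced windows (5.00%) were lower in all 6 groups and 33 (3.59%) higher, against 1.57% and 3.83% of all tested windows. The groups were unequal: generation 4 was below generation 3 in 91.7% of the balanced windows in hrde-1 cytoplasmic RNA and in 62.4% in N2 cytoplasmic RNA, but in 42.7% to 58.0% in the other 4 groups.

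Single windows differed least between generations in whole RNA. The rule set its minimum in whole RNA of both generations and none in the fractions, so this order is a description. The median absolute log2 difference between the 2 libraries of a group was 0.13 in hrde-1 and 0.16 in N2 whole RNA, 0.18 in hrde-1 and 0.21 in N2 nuclear RNA, and 0.38 in hrde-1 and 0.33 in N2 cytoplasmic RNA. In hrde-1 cytoplasmic RNA most of it was a shift of all windows together, with a median of -0.37, generation 4 minus generation 3, against -0.14 in N2 cytoplasmic RNA. About that median the difference was 0.17 in hrde-1 and 0.31 in N2 cytoplasmic RNA. Counting error alone would give 0.11 in whole RNA of either genotype, and 0.15 in hrde-1 and 0.21 in N2 cytoplasmic RNA. The 2 whole RNA libraries were within 1.5-fold of each other in 908 windows in hrde-1 and 906 in N2, and the cytoplasmic ones in 746 in hrde-1 and 710 in N2.

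The table also marks windows as GRTS (191 windows, 0.191% of all) or GRH (215 windows, 0.214%), names that the sources used here do not spell out and that in this field stand for regions of nuclear RNAi-dependent transcriptional silencing and heterochromatin. None of the 920 balanced windows carried either mark, and neither did any other window that passed the whole RNA minimum. The rule itself excludes them, since the highest mean whole RNA coverage was 54.3 in a GRTS window and 76.2 in a GRH window. Within 5 windows of a mark lay 10 balanced windows for GRTS and 16 for GRH. The nearest to GRTS marks were on V from 8847001, V from 8889001 and V from 20464001, each next to a marked window, with mean whole RNA coverages of 205.8, 169.2 and 228.0. In whole RNA the last of these had 226 and 210 in hrde-1 and 245 and 231 in N2, with the N2 libraries the higher ones in both generations.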

How the data were processed

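The 12 libraries were analysed from 1 deposited table of coverage (signal), normalized by the authors, per 1000-base window with a floor of 0.1. Bowtie 0.12.7 was used, per the submitters' processing notes. Genome build, strand, scaling and counting of reads with several matches: not given in the sources used here. Chromosome V of the table ends at 20920000, before the last annotated genes of the reference, so the builds differ and neither annotation nor sequence was used.

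The balanced windows, lists and tests were chosen with earlier results of these data known. Log2(coverage + 1) was fitted with limma 3.58.1 (R 4.3.3; lmFit, and eBayes with a trend) over all 12 libraries in 6 groups, with 6 residual degrees of freedom, or 5 with an additive generation term. The 43933 windows with a mean of at least 1 were tested, and a window was called at a Benjamini-Hochberg adjusted p below 0.05. The pseudocount understates changes of low windows. SDs are over the 2 libraries of a group. A read equivalent is the step for which 69.9% to 89.9% of a library's values below 40 lay within 0.02 of the floor plus whole steps; counting error covers counting only. The fits were tested on simulated data.

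Named windows are the 10 highest in whole RNA, all called ones, the longest runs, windows just inside or outside the rule's limits, and like or marked windows; the text says where others were chosen after their values were seen. Alternatives were pseudocounts of 0.1 and 10, a minimum mean of 10 or none, libraries scaled to 1 median, only the groups compared, generation as a block, each library left out and, chosen after seeing the data, library weights. Selection was repeated with minimums of 50 and 200 and ratio limits of 0.67 and 1.5.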

Additional observations from a re-analysis of the deposited data

Results flagged for a closer look

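In some named windows both libraries of hrde-1 lay on one side of the N2 libraries of their generation in 1 kind of RNA and on the opposite side in another. The difference between kinds of RNA was not tested. The value given is the log2 difference hrde-1 minus N2 in the fraction, less that in whole RNA.

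For cytoplasmic against whole RNA it was -0.4737 on IV from 8262001, -0.2419 on III from 6970001, and -0.3552, -0.4016 and -0.3824 on X from 5104001, 5103001 and 5102001. All 5 are among the 10 most abundant windows. Among the windows called in cytoplasmic RNA it was 1.458 on I from 3268001 and -1.064 on IV from 9511001. Among the windows called lower in generation 4 it was -0.3308 on X from 421001 and 0.4916 on III from 13605001.

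For nuclear against whole RNA it was 0.1834 on IV from 8265001, 0.6009 on I from 3268001 and 0.2337 on IV from 10217001.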

How the results depend on the processing

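The 4 calls in cytoplasmic RNA became 11 with a pseudocount of 0.1, 12 with a minimum mean of 10, 1 with no filter, 30 with libraries scaled to the same median, 0 with only the groups compared and 0 with library weights, and 0 to 102 with 1 library left out. The 8 calls for generation became 0 with a pseudocount of 0.1, 23 with 10, 13 with a minimum mean of 10, 0 with no filter, 0 with median scaling and 30 with library weights, and 0 to 13 with 1 library left out. In whole RNA 1 window, III from 4173001, was called with a minimum mean of 10, and 1 with library weights, and 0 to 1 with 1 library left out; for the ratio, 2 were called with no filter and 0 to 30 with 1 library left out. In nuclear RNA 0 were called under every alternative run, from 0 to 0 with 1 library left out. The causes were not tested, and nothing about the balanced windows is read from these counts.

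Pairing by generation was not stated in the labels beyond the shared number. Deviations of same-numbered libraries from their group means correlated at 0.142 to 0.626 over the balanced windows and at 0.011 to 0.079 over all tested windows (15 pairs of groups). With generation as a replicate block, 12 windows were called in cytoplasmic RNA (7 higher, 5 lower), 1 in whole RNA, 0 in nuclear RNA and 0 for the ratio.

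The 12 called differences and the 6 printed window differences that passed no test kept their direction under every alternative run. Other signs were less stable: of the 26 highest, called or lowest-p windows, median scaling turned the sign of the uncalled difference in 6 for cytoplasmic RNA, 1 each for whole and nuclear RNA, 3 for the ratio and 11 for generation. With 1 library left out, the cytoplasmic less whole difference on X from 421001 ran from -0.95 to 0.29 and the nuclear less whole difference on IV from 10217001 from -0.083 to 0.55. On V from 6703001 the call held in 8 of 12 fits with 1 library left out (adjusted p 0.00474 to 0.143, limma); the other 3 cytoplasmic calls and the 8 for generation held in 2 of 12, those without an N2 cytoplasmic library.

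Membership moved with its limits: 785 windows with median scaling, of which 677 were shared, 2405 with a minimum of 50, 354 with a minimum of 200 and 736 with ratios of 0.67 to 1.5. Depth limits the N2 cytoplasmic values most, where a coverage of 100 stands for 21.8 and 31.7 reads.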
